A study of Mus musculus with 31 samples.

Results

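The response of Ire1 knockout (Ire1 ko) mouse liver to tunicamycin was read from 7 of the 31 arrays of the series, chosen by their titles: 4 from Ire1 ko mice given tunicamycin at 2 mg/kg and sampled at 6 h, and 3 from untreated Ire1 ko mice. All 7 mice were males aged 14 weeks, labelled with a mixed strain background. The experiment also held 4 tunicamycin-treated and 4 untreated wild-type (WT) livers of the same age, sex and dose, labelled C57BL/6. They are described below only to show where the response of Ire1 ko liver differed. All 15 arrays were fitted together, so the WT arrays also entered the choice of genes tested and the spread used in each test. Total liver RNA was measured on an Affymetrix array, and a level is the deposited intensity of a gene's brightest probe set. The untreated mice are labelled as fed. For the treated mice the labels give no feeding state, no vehicle and no time of day, so the drug, its injection, feeding and clock time cannot be told apart. The labels also do not give the promoter or Cre line of the knockout or the deleted part of Ern1, the gene of IRE1α, so the level of Ern1 cannot show whether the knockout worked. The untreated WT mice are titled littermates of Ire1 ko mice, which is at odds with their separate strain label. Strain and genotype cannot be told apart if the strain labels hold.

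Tunicamycin blocks the first step of N-linked glycan assembly, so that glycoproteins misfold in the endoplasmic reticulum (ER). The resulting unfolded protein response starts from the ER membrane sensors IRE1α, PERK and ATF6. IRE1α splices the mRNA of Xbp1 into the message of an active transcription factor and can cleave other mRNAs. PERK slows translation and, through ATF4 and CHOP, raises genes of amino acid supply and growth arrest, and ATF6 is cut in the Golgi into a factor that raises ER chaperones. In liver, which secretes most plasma proteins, the response is also known to lower genes of lipid, glucose and xenobiotic metabolism.

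The promoters shown here belong to genes of ER chaperones, ER-associated degradation and the ATF4 and CHOP list that were called higher and hold a motif of the ATF6, XBP1 or ATF4 branch, taken from the largest rise downward for each motif. They come from RefSeq windows of mouse build GRCm38.p6 that reach from 250 bases before to 50 bases after each start site. Capitals mark the motif, which stands on either strand. The motif named ERSE is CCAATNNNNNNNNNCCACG, and ERSE-II is ATTGGNCCACG. The motif UPRE was searched as TGACGTGG and the composite motif of ATF4 and C/EBP factors as TGATGNAA. The first 4 windows hold ERSE and lie on the plus strand: Derl3 at chr10:75893197-75893305, Creld2 at chr15:88819475-88819583, Syvn1 at chr19:6046487-6046595 and Dnajc3 at chr14:118937782-118937890.
Derl3: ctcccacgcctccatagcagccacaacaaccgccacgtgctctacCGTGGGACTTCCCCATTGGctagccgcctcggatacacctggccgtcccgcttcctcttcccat
Creld2: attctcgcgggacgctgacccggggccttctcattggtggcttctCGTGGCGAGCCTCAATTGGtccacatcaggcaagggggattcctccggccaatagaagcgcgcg
Syvn1: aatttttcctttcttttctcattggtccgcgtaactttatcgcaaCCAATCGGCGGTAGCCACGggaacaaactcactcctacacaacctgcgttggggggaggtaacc
Dnajc3: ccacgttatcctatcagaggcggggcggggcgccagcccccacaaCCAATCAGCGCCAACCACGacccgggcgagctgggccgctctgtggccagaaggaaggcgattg
ERSE-II is shown for Dnajb11 at chr16:22857807-22857894 and Herpud1 at chr8:94386332-94386432, both on the plus strand.
Dnajb11: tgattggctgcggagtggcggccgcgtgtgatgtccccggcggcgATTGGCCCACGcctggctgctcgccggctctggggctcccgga
Herpud1: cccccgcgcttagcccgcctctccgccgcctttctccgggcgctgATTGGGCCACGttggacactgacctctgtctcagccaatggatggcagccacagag
The ATF4 composite motif is shown for 4 genes on the minus strand: Atf3 at chr1:191183391-191183488, Trib3 at chr2:152344011-152344091, Nupr1 at chr7:126625528-126625625 and Fgf21 at chr7:45615577-45615674.
Atf3: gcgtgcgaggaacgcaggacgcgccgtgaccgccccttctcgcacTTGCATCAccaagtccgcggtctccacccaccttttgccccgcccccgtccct
Trib3: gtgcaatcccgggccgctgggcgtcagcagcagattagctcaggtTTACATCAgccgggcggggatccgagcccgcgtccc
Nupr1: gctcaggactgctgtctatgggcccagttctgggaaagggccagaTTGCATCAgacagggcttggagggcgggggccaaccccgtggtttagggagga
Fgf21: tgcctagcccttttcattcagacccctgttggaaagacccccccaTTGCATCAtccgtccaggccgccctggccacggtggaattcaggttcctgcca
UPRE is shown for Ube2j1, a ubiquitin-conjugating enzyme of the ER membrane with a smaller rise (0.53 ± 0.10), at chr4:33031267-33031364 on the plus strand.
Ube2j1: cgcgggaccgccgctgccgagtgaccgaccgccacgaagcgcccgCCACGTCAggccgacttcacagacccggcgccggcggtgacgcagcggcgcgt

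Of 15172 genes tested, 12117 had a promoter in the table. ERSE stood in 13 of 684 promoters (1.9%) of genes called at least 2-fold higher in treated Ire1 ko livers, in 0 of 344 called at least 2-fold lower, in 5 of 8653 not called (0.0578%) and in 0.119% of all 32851 promoters. It stood in 6 of 18 ER chaperones (33.3%), all 6 of them called higher, as were 14 of all 18. The ATF4 composite motif is short and common, in 3.97% of all promoters and in 3.4% of those not called. It stood in 4.82% of those called at least 2-fold higher, and in 8 of 22 genes of the ATF4 and CHOP list (36.4%) and 4 of 14 tRNA synthetases (28.6%). In the ATF4 and CHOP list it was no more common among called genes, at 5 of 16 (31.2%). UPRE stood in 1.32% of promoters of genes called at least 2-fold higher, against 0.971% of those not called and 0.676% of all promoters. ERSE-II stood in 0.585% of promoters of genes called at least 2-fold higher, against 0.0116% of those not called and 0.0365% of all. These matches describe letters in a window and are no evidence of binding.

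A gene was called when its Benjamini-Hochberg adjusted p in limma lay under 0.05. In Ire1 ko liver 4204 of 15172 genes (27.7%) were called, of which 2634 (17.4% of those tested) were higher and 1570 (10.3%) lower after tunicamycin. Changes of at least 2-fold numbered 838 upward and 438 downward, and those of at least 4-fold 177 and 72. The split depended on scaling: quantile normalization gave 2049 higher and 2235 lower, and shifting the arrays to 1 median of their brighter probe sets (median scaling) gave 1874 and 3427, with the median log2 change of all genes at -0.18 instead of 0. Of the called genes 775 stayed under a mean of 16 in both groups, near the floor of the array, where values are whole numbers of 3 or a little more and fold changes are compressed. The 7 arrays reached a brightest value of 12338 to 19415. Arrays correlated at 0.9903 to 0.9934 among treated and 0.9841 to 0.9876 among untreated Ire1 ko livers, and at 0.957 to 0.9664 between the groups.

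**Figure D1:**
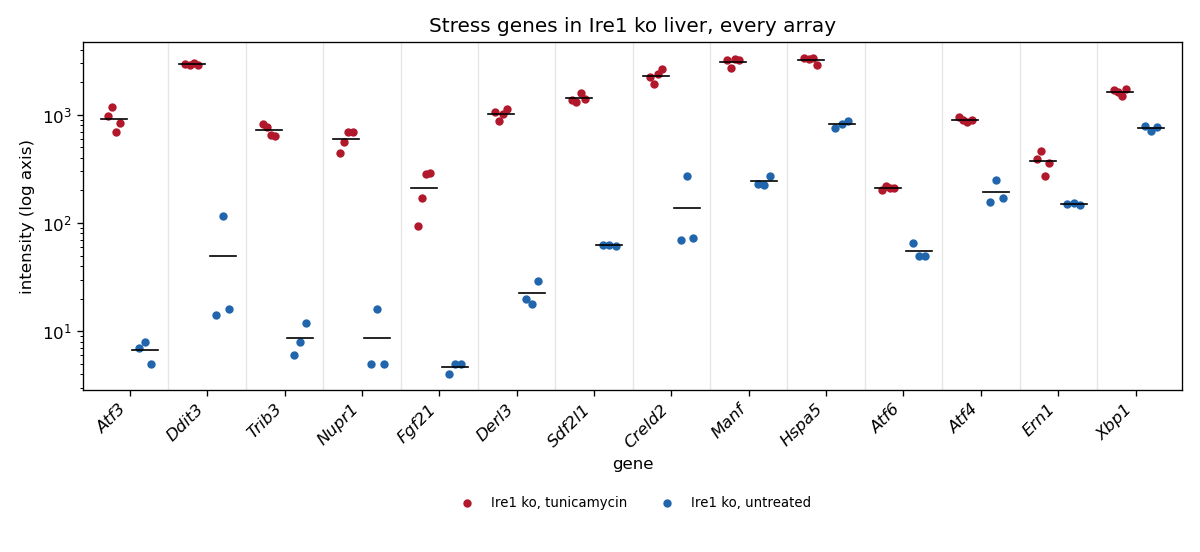
Intensity (log axis) of 14 stress genes in every array of tunicamycin-treated (left of each pair, 4 arrays) and untreated (right, 3 arrays) Ire1 ko liver, with points for arrays and bars for means. For all 14 genes every treated array lies above every untreated one, from Atf3 (919.5 against 6.67 on average) to Xbp1 (1640.2 against 755).

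The 4 highest rises named here belonged to genes of the ATF4 and CHOP list. Atf3, a stress-induced transcription factor, had intensities of 974, 1178, 689 and 837 in treated Ire1 ko livers, against 7, 8 and 5 in untreated Ire1 ko livers. Ddit3, which encodes CHOP, had 2976, 2902, 3002 and 2896 in treated Ire1 ko livers, against 14, 117 and 16 in untreated Ire1 ko livers. Atf3 was near the floor in every untreated array, and for both genes no untreated array came close to a treated one. Their log2 changes were 7.11 ± 0.20 (SE; adjusted p = 4.01e-12) and 6.63 ± 0.49 (adjusted p = 5.06e-08). Trib3, a pseudokinase induced by CHOP and ATF4, had 822, 772, 655 and 635 in treated Ire1 ko livers, against 6, 8 and 12 in untreated Ire1 ko livers, a log2 change of 6.43 ± 0.22 (adjusted p = 1.72e-11). Nupr1, a small stress-induced chromatin protein, had 448, 562, 688 and 693 in treated Ire1 ko livers, against 5, 16 and 5 in untreated Ire1 ko livers (log2 change 6.32 ± 0.31; adjusted p = 7.12e-10). Fgf21, a hormone released by stressed or fasted liver, had 94, 172, 284 and 290 in treated Ire1 ko livers, against 4, 5 and 5 in untreated Ire1 ko livers (log2 change 5.36 ± 0.33; adjusted p = 5.96e-09). The promoters of all these genes but Ddit3 are printed above with an ATF4 composite motif. Of 27 tested genes of the ATF4 and CHOP list, 18 rose and 0 fell, with a median log2 change of 0.86, against 0 over all genes. Ddit4, an inhibitor of mTORC1, rose by 3.02 ± 0.41. Ppp1r15b, the constitutive subunit that reverses eIF2α phosphorylation, stood at 0.23 ± 0.10 and Vegfa at -0.15 ± 0.14, both without passing the test.

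The sensors and their transcription factors were raised at the RNA level too. Atf4 had 950, 905, 853 and 889 in treated Ire1 ko livers, against 156, 251 and 169 in untreated Ire1 ko livers, a log2 change of 2.26 ± 0.14 (SE; adjusted p = 5.24e-09). Atf6 had 204, 219, 213 and 212 in treated Ire1 ko livers, against 65, 50 and 49 in untreated Ire1 ko livers (log2 change 1.97 ± 0.10; adjusted p = 8.8e-10). The treated arrays lay well above the untreated ones for both, but the other probe set of Atf4 was not called, at a log2 change of 0. Ern1 had 393, 467, 270 and 360 in treated Ire1 ko livers, against 150, 153 and 148 in untreated Ire1 ko livers (log2 change 1.28 ± 0.19; adjusted p = 7.6e-05). Xbp1, the mRNA that IRE1α splices, had 1696, 1642, 1491 and 1732 in treated Ire1 ko livers, against 784, 715 and 765 in untreated Ire1 ko livers (log2 change 1.12 ± 0.11; adjusted p = 1.15e-06). These probe sets do not tell spliced from unspliced Xbp1. For Ern1 and for Xbp1, 3 of 4 probe sets were called higher. Eif2ak3, the gene of PERK, was dim, at 14, 17, 15 and 19 in treated Ire1 ko livers, against 11, 11 and 9 in untreated Ire1 ko livers (log2 change 0.65 ± 0.16; adjusted p = 0.00529, and 0.0726 after quantile normalization). Of 20 tested sensors and transducers, 10 rose and 0 fell under the scaling as deposited, 9 and 1 after quantile normalization, and 10 and 2 under median scaling. The others that rose were Creb3 by 0.61 ± 0.12 and Creb3l2 by 0.93 ± 0.17, transcription factors cut in the Golgi as ATF6 is, Mbtps2, a protease that makes that cut, by 0.91 ± 0.17, and Bfar, an ER-membrane regulator of cell death, by 0.57 ± 0.09. Creb3l3, the liver member of that family, stood at -0.29 ± 0.15, the ER-membrane protein Tmbim6 at -0.13 ± 0.07 and Traf2, an adaptor of IRE1α, at 0.48 ± 0.18, none past the test. Under median scaling Creb3l3 (-0.47; adjusted p = 0.0157) and Tmbim6 (-0.31; adjusted p = 0.0223) were called lower. The eIF2α kinases Eif2ak1, Eif2ak2 and Eif2ak4 and the protease Mbtps1 were not called, with log2 changes of -0.14, -0.12, 0.31 and 0.13. After quantile normalization Eif2ak1 was called lower at -0.32 (adjusted p = 0.0481). Atf6b, Ern2 and Creb3l1 averaged below 6 in treated and untreated Ire1 ko livers and were not called.

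ER chaperones rose as a group. Hspa5, which encodes BiP, the main ER HSP70 chaperone, had 3347, 3262, 3333 and 2879 in treated Ire1 ko livers, against 763, 823 and 869 in untreated Ire1 ko livers, a log2 change of 1.97 ± 0.10 (SE; adjusted p = 7.12e-10). Sdf2l1, a BiP cofactor, had 1381, 1321, 1607 and 1401 in treated Ire1 ko livers, against 63, 62 and 61 in untreated Ire1 ko livers (log2 change 4.52 ± 0.22; adjusted p = 6.93e-10). Creld2 had 2233, 1923, 2393 and 2685 in treated Ire1 ko livers, against 69, 275 and 73 in untreated Ire1 ko livers (log2 change 4.36 ± 0.37; adjusted p = 2.28e-07). Every treated array exceeded every untreated one for these genes. Manf, a secreted ER stress protein, rose by 3.68 ± 0.16, Hyou1, a BiP exchange factor, by 2.89 ± 0.19, and the J-domain cochaperones Dnajb11 and Dnajc3 by 2.54 ± 0.11 and 2.11 ± 0.10. Of 21 tested chaperones 17 rose and 0 fell, with a median of 1.65, or 16 and 0 under both other scalings. Fkbp2 (0.01 ± 0.09), Sdf2 (-0.11 ± 0.12) and Fkbp11 (0.32 ± 0.23), the first and last being peptidyl-prolyl isomerases, were not called. Hspa5 was chosen outside the rule for named genes, after its values were seen.

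Enzymes of disulfide formation moved unequally. Pdia4, a protein disulfide isomerase, rose by 3.27 ± 0.16 (SE) and Pdia6 by 2.05 ± 0.10, and the oxidases Ero1b and Ero1a by 2.44 ± 0.12 and 2.40 ± 0.21. Pdia5 fell, with 99, 95, 101 and 148 in treated Ire1 ko livers, against 478, 278 and 330 in untreated Ire1 ko livers (log2 change -1.70 ± 0.20; adjusted p = 7.81e-06). In all 11 of 21 tested genes rose and 2 fell under the scaling as deposited, and 8 and 7 under median scaling.

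Genes of ER-associated degradation, which returns misfolded proteins to the cytosol, rose at 17 of 29 tested and fell at 3 (15 and 5 under median scaling). Derl3, a derlin of the retrotranslocation complex, had 1066, 880, 1012 and 1142 in treated Ire1 ko livers, against 20, 18 and 29 in untreated Ire1 ko livers, a log2 change of 5.54 ± 0.39 (SE; adjusted p = 3.07e-08). The groups did not overlap, and the promoter of Derl3 holds one of the ERSE matches shown above. The ubiquitin ligase Syvn1 and its partner Sel1l rose by 3.09 ± 0.17 and 2.92 ± 0.16, the mannosidase-like lectin Edem1 by 1.93 ± 0.15, and Herpud1 by 1.86 ± 0.15. Derl2 (0.27 ± 0.10, although its other probe set was called at 0.61), Rnf139 (-0.06 ± 0.13) and Aup1 (-0.12 ± 0.11) were not called. Edem2, related to Edem1, fell, with 41, 43, 53 and 58 in treated Ire1 ko livers, against 112, 88 and 88 in untreated Ire1 ko livers (log2 change -0.98 ± 0.24; adjusted p = 0.00578), and was named after its values were seen.

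Sugar supply and glycan assembly, the steps next to the block by tunicamycin, showed strong rises in single enzymes. Gfpt1, which commits fructose 6-phosphate to the hexosamine pathway, had 487, 349, 281 and 320 in treated Ire1 ko livers, against 32, 41 and 19 in untreated Ire1 ko livers (log2 change 3.59 ± 0.25; adjusted p = 2.99e-08). Pmm1, a phosphomannomutase, had 74, 67, 40 and 58 in treated Ire1 ko livers, against 6, 5 and 5 in untreated Ire1 ko livers (log2 change 3.45 ± 0.19; adjusted p = 1.76e-09). Slc35b1, a nucleotide carrier of the ER membrane, rose by 2.31 ± 0.09. Over the list of sugar nucleotide supply 7 of 18 rose and 3 fell, with a median of -0.14, and the counts were 6 and 5 after quantile normalization and 6 and 6 under median scaling. The nucleotide sugar carrier Slc35d2 had a log2 change of -1.29 ± 0.21, while Ugp2 and Pmm2 were not called at -0.12 and -0.20. In N-glycosylation 15 of 34 rose and 3 fell, with the mannosyltransferase Alg12 at 1.70 ± 0.15, the folding sensor Uggt1 at 1.59 ± 0.12 and the oligosaccharyltransferase subunit Stt3b at 1.35 ± 0.12. Under median scaling 11 rose and 6 fell. The number lower was 0 without untreated replicate 1 or without treated replicate 1 or 2, and 1 without treated replicate 3 or 4. Rpn2 (0.14 ± 0.10) and Stt3a (0.27 ± 0.15), also of the oligosaccharyltransferase, were not called.

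Genes of the entry and exit routes of the ER went both ways in Ire1 ko liver. Of 20 tested genes of ER translocation 6 rose and 3 fell, with a median log2 change of 0.09. Sec61b, a subunit of the translocation channel, fell, with 110, 85, 105 and 119 in treated Ire1 ko livers, against 173, 156 and 137 in untreated Ire1 ko livers (log2 change -0.57 ± 0.13; adjusted p = 0.00294). Sec61a1, the channel itself, stood at 0.25 ± 0.11 without passing the test, although another of its 4 probe sets was called at 0.62, and it was called without treated replicate 2 (0.34; adjusted p = 0.0244). The translocation aid Tram1 fell by a log2 change of -0.44 ± 0.09. Srp54a, of the signal recognition particle, rose by 0.90 ± 0.12, although its other probe set was not called at -0.16. Sec63 rose by 0.79 ± 0.16, with 2 of its 4 probe sets called higher. Of 44 tested genes of ER to Golgi transport 13 rose and 5 fell, with a median of 0.12. Both medians changed sign under median scaling, to -0.09 with 4 higher and 5 lower for translocation and to -0.06 with 9 higher and 12 lower for transport. The number of transport genes lower was 3 without untreated replicate 1 or 2, treated replicate 2 or 3, or, among WT arrays, untreated replicate 1 or treated replicate 1 or 4. Mcfd2, a cargo receptor partner, rose by 1.51 ± 0.09 and the COPII subunit Sec23a by 1.15 ± 0.11, Sar1b, the GTPase that starts COPII budding, fell by a log2 change of -0.77 ± 0.10, and Kdelr2 (-0.14 ± 0.09) and Copa (0.02 ± 0.10) were not called.

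**Figure D2:**
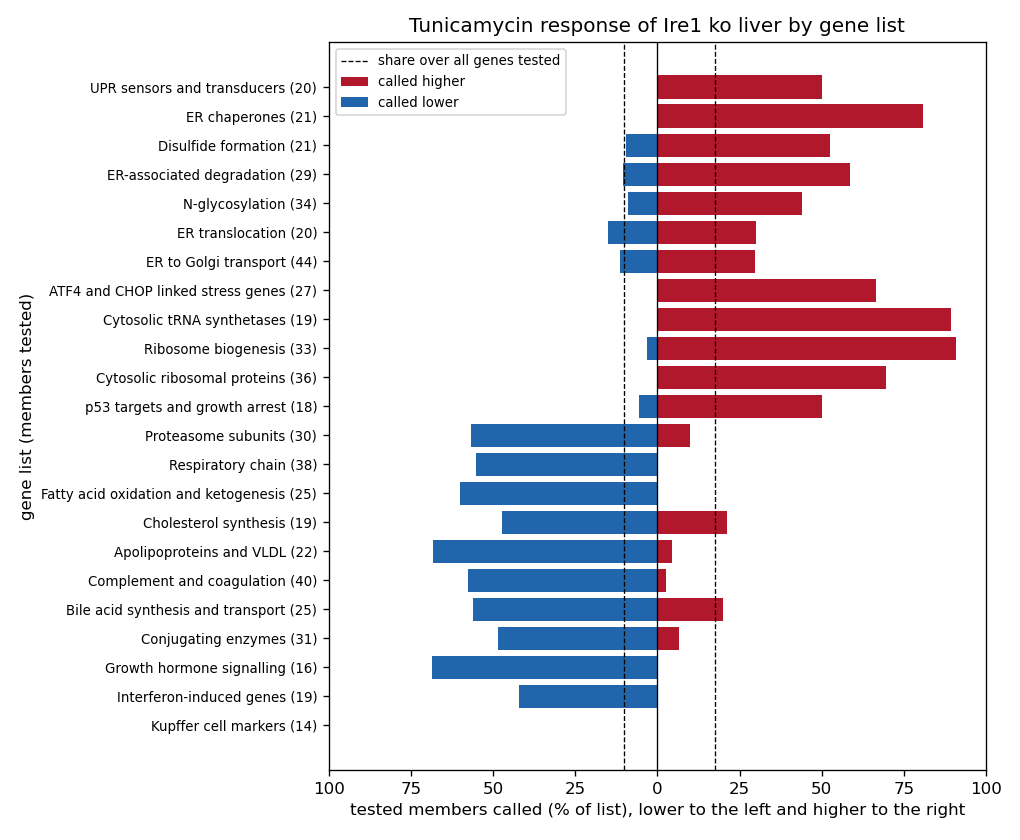
Share of the tested members of 23 gene lists called lower (bars to the left) and higher (bars to the right) in tunicamycin-treated against untreated Ire1 ko liver, with the number tested in parentheses. Dashed lines give the shares over all genes, 10.3% lower and 17.4% higher. Chaperones, tRNA synthetases and ribosome biogenesis extend far to the right, and the lists of lipid, bile acid and plasma protein genes to the left.

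Amino acid supply was raised in parts. Of 19 cytosolic tRNA synthetases and their scaffold genes 17 rose and 0 fell under all 3 scalings, with a median of 1.11. Lars had 291, 196, 253 and 274 in treated Ire1 ko livers, against 69, 54 and 54 in untreated Ire1 ko livers (log2 change 2.10 ± 0.18; adjusted p = 2.14e-07), and Iars, Wars and Gars rose by 2.06 ± 0.11, 2.05 ± 0.12 and 1.89 ± 0.11. Mars1 was not called at -0.05 ± 0.16 and Kars at 0.25 ± 0.11. In serine synthesis Psat1 rose by 3.74 ± 0.15 and Psph by 2.06 ± 0.24, while the one-carbon enzymes Mthfd1 and Shmt2 fell by log2 changes of -1.13 and -0.52 (Shmt2 at -0.40 without untreated replicate 2, adjusted p = 0.0707). That list held 3 higher and 2 lower of 17 tested, shares near the 17.4% higher and 10.3% lower over all genes, or 3 and 4 under median scaling. Of 22 amino acid transporters 5 rose and 2 fell, also near those shares. The counts were 4 higher and 4 lower without treated replicate 2 and 4 and 8 under median scaling. Slc7a1, for cationic amino acids, rose by 2.46 ± 0.28, Slc3a2, the shared heavy chain of several transporters, by 2.30 ± 0.14 and Slc38a2 by 0.99 ± 0.18, while the taurine transporter Slc6a6 had a log2 change of -2.08 ± 0.19. Slc38a3 (0.02 ± 0.10) and Slc38a4 (-0.15 ± 0.11) were not called, but the second probe set of Slc38a4 was called lower at -1.33.

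Ribosome building rose in 30 of 33 tested genes and fell in 1, with a median of 1.35, or 29 and 1 under both other scalings. Nop56, of the box C/D snoRNP, had 274, 237, 232 and 204 in treated Ire1 ko livers, against 30, 33 and 33 in untreated Ire1 ko livers (log2 change 2.88 ± 0.18; adjusted p = 8.21e-09). Nop58 of the same particle rose by 3.10 ± 0.19, Gar1 of the box H/ACA particle by 2.83 ± 0.14 and the ribosome assembly factor Rrp12 by 2.77 ± 0.25, while Nop10 was not called at 0.11 ± 0.08. The ribosomal proteins themselves shifted by less. Here 25 of 36 were called higher and 0 lower, with a median of 0.30 and the largest of them, Rpl3, at 0.50 ± 0.07. Without untreated replicate 2 the number higher was 15, and under median scaling 2 of them were called. Proteasome subunits went the other way, with 17 of 30 lower and 3 higher (median -0.26). Psmd2 fell by a log2 change of -0.77 ± 0.09 and Psmd1 by one of -0.71 ± 0.10, whereas Psmd4 (0.01 ± 0.08) and Psmb5 (0.11 ± 0.09) were not called.

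Genes of growth arrest were higher more often than lower, and immediate early genes were mostly not called. Cdkn1a, the cell cycle inhibitor p21, had 215, 336, 365 and 258 in treated Ire1 ko livers, against 6, 6 and 5 in untreated Ire1 ko livers (log2 change 5.67 ± 0.17; adjusted p = 5.38e-12). Gadd45a had 101, 99, 81 and 54 in treated Ire1 ko livers, against 8, 7 and 7 in untreated Ire1 ko livers (log2 change 3.47 ± 0.23; adjusted p = 1.84e-08). Both were bright in every treated array and near the floor in every untreated one. In the p53 and growth arrest list 9 of 18 rose and 1 fell, including Trp53inp1 by 2.38 ± 0.22, Aen by 1.98 ± 0.14 and Btg2 by 1.77 ± 0.29, and Perp was not called at -0.23 ± 0.15. Tnfrsf12a, the TWEAK receptor, rose by 3.86 ± 0.19 and Bid, a pro-death BCL2 member, by 1.07 ± 0.31, a call that was lost without untreated replicate 2 (adjusted p = 0.101) or replicate 3 (adjusted p = 0.0596). Of the 26 BCL2 family and death receptor genes 4 rose, a share near the 17.4% over all genes, and 6 fell, against 10.3% over all genes. The number higher was 2 without untreated replicate 2 or treated replicate 2 and 1 without untreated replicate 3, the number lower was 3 without untreated replicate 1, and median scaling gave 2 higher and 8 lower. Mcl1 was not called at -0.07 ± 0.17, while another of its 3 probe sets was called higher at 0.44. Of 29 immediate early genes 8 rose and 1 fell, with a median of 0.12 (8 and 4 with a median of -0.06 under median scaling). Among them Myc rose by 2.02 ± 0.43. Egr1, called at 2.36 ± 0.54, had overlapping arrays, with 79, 126, 26 and 59 in treated Ire1 ko livers, against 30, 6 and 10 in untreated Ire1 ko livers. Cytosolic heat shock genes were split, with 5 of 15 higher (3 without untreated replicate 2 or treated replicate 1, and 3 under median scaling) and 3 lower. Hsph1 had 279, 225, 223 and 285 in treated Ire1 ko livers, against 113, 126 and 138 in untreated Ire1 ko livers (adjusted p = 0.00207). Hspa1b fell by a log2 change of -1.72 ± 0.34 and Hsp90aa1 was not called at 0.29 ± 0.21.

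Several genes outside the lists described so far also rose strongly. Bco1, which cleaves beta-carotene, had 238, 124, 241 and 273 in treated Ire1 ko livers, against 6, 6 and 7 in untreated Ire1 ko livers (log2 change 5.05 ± 0.21; adjusted p = 9.86e-11). Cyp2b10, a phenobarbital-inducible cytochrome P450, had 2766, 3162, 2892 and 1989 in treated Ire1 ko livers, against 169, 347 and 33 in untreated Ire1 ko livers (log2 change 4.42 ± 0.50; adjusted p = 5.43e-06). Each treated array was above each untreated one. Cyb5r1, a cytochrome b5 reductase, rose by 4.43 ± 0.16, the choline kinase Chka by 4.13 ± 0.17 and Ifrd1 by 4.02 ± 0.25. Igfbp1, a stress-responsive binder of insulin-like growth factors, had 2177, 2576, 1673 and 2284 in treated Ire1 ko livers, against 388, 404 and 350 in untreated Ire1 ko livers (log2 change 2.50 ± 0.34; adjusted p = 3.67e-05).

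**Figure D3:**
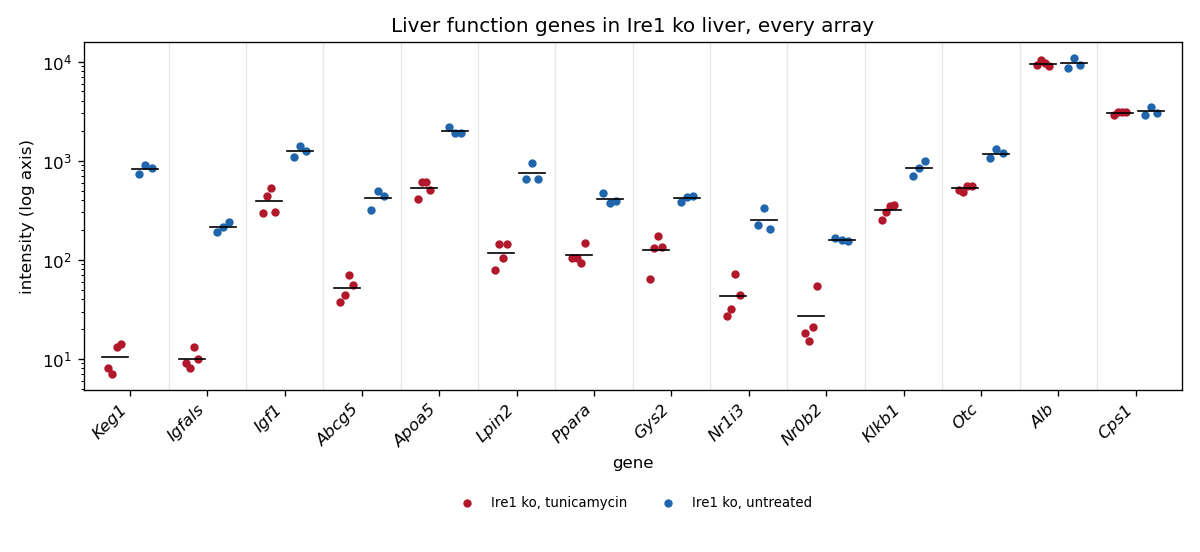
Intensity (log axis) of 14 liver function genes in every array of tunicamycin-treated (left of each pair, 4 arrays) and untreated (right, 3 arrays) Ire1 ko liver, with points for arrays and bars for means. The first 12 genes were called lower, led by Keg1 at 10.5 against 833 on average, while Alb and Cps1 overlapped between the groups.

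Many genes of liver function fell, while several of the brightest, such as Alb, were not called. For some bright genes, such as Apoa1, that depended on the scaling. Keg1, a glycine N-acyltransferase-like gene, had 8, 7, 13 and 14 in treated Ire1 ko livers, against 736, 909 and 853 in untreated Ire1 ko livers, a log2 change of -6.37 ± 0.26 (SE; adjusted p = 9.86e-11). The treated livers were close to the floor and the untreated ones far above it. Nrep, Upp2, a uridine phosphorylase, and Plcxd2 had log2 changes of -4.47 ± 0.43, -3.80 ± 0.57 and -3.74 ± 0.17, followed by the ferritin receptor Scara5 (-3.61 ± 0.27), the tight junction protein Cldn2 (-3.60 ± 0.22), the endothelial lipase Lipg (-3.60 ± 0.28), Serpina4-ps1 (-3.26 ± 0.46), the transcription factor Hes6 (-3.21 ± 0.21), Arrdc3 (-3.13 ± 0.27), Phlda1 (-3.11 ± 0.30) and Paqr7 (-3.05 ± 0.17). Alb, which encodes albumin, had 9337, 10294, 9625 and 9014 in treated Ire1 ko livers, against 8690, 10835 and 9299 in untreated Ire1 ko livers and was not called (log2 change 0.00 ± 0.07; adjusted p = 1). Of 40 genes of complement and coagulation 23 fell and 1 rose, with a median of -0.42. Klkb1, plasma prekallikrein, had 253, 306, 352 and 355 in treated Ire1 ko livers, against 706, 847 and 998 in untreated Ire1 ko livers (log2 change -1.42 ± 0.16; adjusted p = 5.23e-06), and C6 and F7 fell by log2 changes of -1.32 and -1.06. The fibrinogen chains Fga (-0.08 ± 0.13), Fgb (0.13 ± 0.10) and Fgg (0.07 ± 0.08) were not called. Among 22 apolipoprotein and lipoprotein genes 15 fell and 1 rose (median -0.43). Abcg5 and Abcg8, which form the sterol exporter of the canalicular membrane, fell by log2 changes of -3.02 ± 0.21 and -3.23 ± 0.26, and Apoa5, which lowers plasma triglyceride, had 406, 607, 613 and 502 in treated Ire1 ko livers, against 2198, 1914 and 1885 in untreated Ire1 ko livers (log2 change -1.93 ± 0.25; adjusted p = 2.58e-05). Apoa1 (-0.14 ± 0.07) and Apoa2 (-0.11 ± 0.05) were not called. Both were called lower after quantile normalization (adjusted p = 0.0142 for Apoa1 and 0.0215 for Apoa2) and under median scaling (0.00895 and 0.00941).

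Growth hormone dependent genes fell at 11 of 16 tested with 0 higher and a median of -0.82. Igfals, which holds insulin-like growth factors in plasma, had 9, 8, 13 and 10 in treated Ire1 ko livers, against 189, 215 and 239 in untreated Ire1 ko livers (log2 change -4.44 ± 0.19; adjusted p = 1.26e-10). Igf1 had 298, 435, 531 and 306 in treated Ire1 ko livers, against 1093, 1415 and 1264 in untreated Ire1 ko livers (log2 change -1.71 ± 0.17; adjusted p = 1.18e-06). Both were lower in every treated array. Cish, a feedback inhibitor of the pathway, and the repressor Bcl6 fell by log2 changes of -1.22 ± 0.22 and -1.28 ± 0.31, and Elovl3 was not called at 0.73 ± 0.80.

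In lipid metabolism the direction differed by pathway. Of 25 genes of fatty acid oxidation and ketogenesis 15 fell and 0 rose (median -0.45), but 8 fell without untreated replicate 2. Ppara, the receptor that drives these genes, had 105, 104, 93 and 149 in treated Ire1 ko livers, against 470, 371 and 389 in untreated Ire1 ko livers (log2 change -1.88 ± 0.18; adjusted p = 1.05e-06). Cpt2 fell by a log2 change of -1.06 ± 0.15, and Acadm was not called at -0.07 ± 0.08, but was under median scaling (-0.25; adjusted p = 0.0361). In cholesterol synthesis 9 of 19 fell and 4 rose. Dhcr7 and Idi1 fell by log2 changes of -2.63 and -1.89, Mvd rose by 1.85 ± 0.40, and Sqle (0.33 ± 0.21) and Sc5d (-0.35 ± 0.21) were not called, but 1 of the 3 probe sets of Sc5d was called at -1.43, and without untreated replicate 1 Sc5d was called at -0.71 (adjusted p = 0.00251). Lipogenesis and triglyceride genes were mixed, with 8 of 31 higher and 7 lower. Lpin2, a phosphatidate phosphatase, had 78, 144, 104 and 143 in treated Ire1 ko livers, against 650, 950 and 646 in untreated Ire1 ko livers (log2 change -2.69 ± 0.24; adjusted p = 3.65e-07). Its relative Lpin1 rose by 1.65 ± 0.47 with overlapping arrays, and by 1.19 without untreated replicate 1 (adjusted p = 0.0948). G0s2, an inhibitor of triglyceride breakdown, rose by 2.11 ± 0.31, Fasn fell by a log2 change of -1.63 ± 0.23, and Scd1 was not called at 0.31 ± 0.17, but was without untreated replicate 2 (0.54; adjusted p = 0.0194).

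Bile acid, glucose and nitrogen genes were lower more often than higher. In bile acid synthesis and transport 14 of 25 fell and 5 rose, but 10 to 13 fell when 1 Ire1 ko array was left out. Nr0b2, the repressor SHP, had 18, 15, 21 and 54 in treated Ire1 ko livers, against 166, 157 and 155 in untreated Ire1 ko livers (log2 change -2.76 ± 0.34; adjusted p = 1.37e-05). Akr1d1 fell by a log2 change of -2.33 ± 0.32 and Hsd3b7 by one of -1.48 ± 0.13. Cyp7a1, the rate-limiting enzyme of the pathway, stood at 0.65 ± 0.71 and the bile salt export pump Abcb11 at 0.05 ± 0.16, neither called. In glucose metabolism 7 of 21 fell and 1 rose. The liver glycogen synthase Gys2 had 64, 132, 172 and 133 in treated Ire1 ko livers, against 382, 433 and 443 in untreated Ire1 ko livers (log2 change -1.83 ± 0.31; adjusted p = 0.000237), and the glucose transporter Slc2a2 fell by a log2 change of -1.21 ± 0.19. In the urea cycle and amino acid catabolism 10 of 26 fell and 2 rose, or 16 and 1 under median scaling. Otc had 507, 484, 555 and 560 in treated Ire1 ko livers, against 1053, 1300 and 1187 in untreated Ire1 ko livers (log2 change -1.16 ± 0.12; adjusted p = 2.03e-06), Tat rose by 0.78 ± 0.15, and Cps1 (-0.05 ± 0.07) and Ass1 (0.09 ± 0.11) were not called. Under median scaling Cps1 was called lower at -0.23 (adjusted p = 0.0499).

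Drug metabolism genes fell in part. Of 37 cytochromes P450 of families 1 to 4, 10 fell and 2 rose, or 18 and 1 under median scaling, and the number higher was 1 without untreated replicate 2 or treated replicate 2 or 3. The largest change in this list was the rise of Cyp2b10 described above (log2 change 4.42). Cyp3a25 had a log2 change of -0.99 ± 0.14, and the bright Cyp2e1 (-0.07 ± 0.05) and Cyp3a11 (-0.10 ± 0.08) were not called. Under median scaling Cyp2e1 (-0.25; adjusted p = 0.0258) and Cyp3a11 (-0.28; adjusted p = 0.0142) were called lower. Of 31 conjugating enzymes 15 fell and 2 rose, with the glutathione transferase Gsta4 at -1.65 ± 0.32. Many of these enzymes are close paralogs, so their probe sets may read more than 1 of them. The nuclear receptor Nr1i3 (CAR), a regulator of both families, had 27, 32, 71 and 44 in treated Ire1 ko livers, against 222, 336 and 202 in untreated Ire1 ko livers (log2 change -2.61 ± 0.28; adjusted p = 3.46e-06). The list of hepatocyte transcription factors held 7 higher and 11 lower of 33, with Cebpd up by 2.17 ± 0.20, Onecut1 at -1.82 ± 0.24, and Nr5a2 not called at 0.54 ± 0.33. Hnf4a, a central factor of hepatocyte identity, rose by 0.40 ± 0.09, and stood at 0.22 under median scaling (adjusted p = 0.109). Of 27 NRF2 antioxidant genes 4 rose (2 without untreated replicate 3 or treated replicate 2) and 13 fell (2 and 14 under median scaling): Srxn1 by 2.74 ± 0.26, and Gclc, of glutathione synthesis, with a log2 change of -0.96 ± 0.18. Respiratory chain subunits were lower in 21 of 38 with 0 higher and a small median of -0.26, and in 36 under median scaling. Ndufb3 had a log2 change of -0.74 ± 0.14 and the bright Atp5b was not called at -0.07 ± 0.06, but was under median scaling (-0.25; adjusted p = 0.0339).

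Some genes of iron handling, the clock and immunity changed as well. Hamp, which encodes hepcidin, the hormone that blocks iron export, had 8020, 7362, 7640 and 7285 in treated Ire1 ko livers, against 3258, 3070 and 2417 in untreated Ire1 ko livers (log2 change 1.39 ± 0.13; adjusted p = 4.96e-07). Id1, a target of bone morphogenetic protein signalling, rose by 3.67 ± 0.21, and the transferrin receptor Tfrc fell by a log2 change of -2.21 ± 0.23. The iron list held 10 higher and 7 lower of 23, and Fth1 (-0.13 ± 0.07) was not called. Fth1 was called lower after quantile normalization (adjusted p = 0.0431) and under median scaling (adjusted p = 0.0116). Among 20 clock genes 6 rose and 4 fell (2 without untreated replicate 3), with Arntl, a core activator of the clock, at 2.61 ± 0.23 and Per1 at 1.58 ± 0.24. The time of collection is not given for either group, and its part in these changes was not tested. Interferon-induced genes fell at 8 of 19 with 0 higher, at 12 after quantile normalization and at 14 under median scaling. Igtp had 14, 11, 8 and 12 in treated Ire1 ko livers, against 58, 96 and 56 in untreated Ire1 ko livers (log2 change -2.62 ± 0.28; adjusted p = 2.66e-06), and Psmb9 fell by a log2 change of -1.46 ± 0.30. Acute phase genes held 3 higher and 6 lower of 32, a called share near that over all genes, with a median of 0.01, and 1 was higher without untreated replicate 2 or 3. Apcs, serum amyloid P, rose by 1.98 ± 0.38, and Hpx was not called at 0.05 ± 0.10.

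Kupffer cell markers moved with 1 array, and most markers of other cells were not called. The 14 Kupffer cell markers summed to 992 to 1373 in treated and 916 to 2810 in untreated Ire1 ko livers, and limma called 0 of them. The highest sum was that of untreated replicate 1, which had 1155 for Cd5l, a macrophage protein, against 333 and 382 in the other untreated livers. Without it, interferon-induced genes held 0 higher and 7 lower with a median of -0.27, against -0.53 with it, and the acute phase list 6 higher and 4 lower. Hepatocyte markers summed to 40543 to 43244 in treated and 42326 to 45833 in untreated livers, with 1 of 10 higher and 3 lower. Endothelial markers held 1 higher and 2 lower of 14 (0 to 3 and 1 to 2 without 1 array), stellate cell markers 0 and 1 of 11 (Col3a1, adjusted p = 0.00329), erythroid markers 0 and 1 of 4 (Alas2 at -0.70 ± 0.23, a call lost without untreated replicate 2 or 3 or without treated replicate 1 or 2, at an adjusted p of up to 0.176). Of 4 cholangiocyte, 9 neutrophil, 12 lymphocyte, 1 adipose and 7 pancreas markers tested limma called 0. The array has no true zero, and the cholangiocyte markers, at a sum of 19 to 21 in both groups, lay at its floor. In bulk RNA fewer cells of a type and less RNA per cell cannot be told apart, and the part of cell makeup in the results was not tested.

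The response was compared with that of WT liver through the interaction, which is the log2 change in Ire1 ko liver minus that in WT liver. In WT 2807 genes (18.5%) were higher and 2677 (17.6%) lower after tunicamycin. Of the 4204 genes called in Ire1 ko liver 3201 were also called in the same direction in WT and 49 in the opposite one. The interaction was called for 1142 genes (7.53%), 543 of them positive (3.58% of those tested) and 599 negative (3.95%). In the ATF4 and CHOP list it was positive for 4 and negative for 2 of 27 tested genes. Among 20 tested sensors and transducers it was positive for 1 and negative for 5. Several stress genes described above had no called interaction. Ddit3 had an interaction of -1.37 ± 0.66 (SE; adjusted p = 0.274) and Atf3 one of -0.64 ± 0.28. Trib3 had one of 0.05 ± 0.30, Atf4 one of -0.02 ± 0.18 and Hspa5 one of -0.03 ± 0.13 (adjusted p = 0.951). A p that misses the threshold does not show that the genotypes responded alike.

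**Figure D4:**
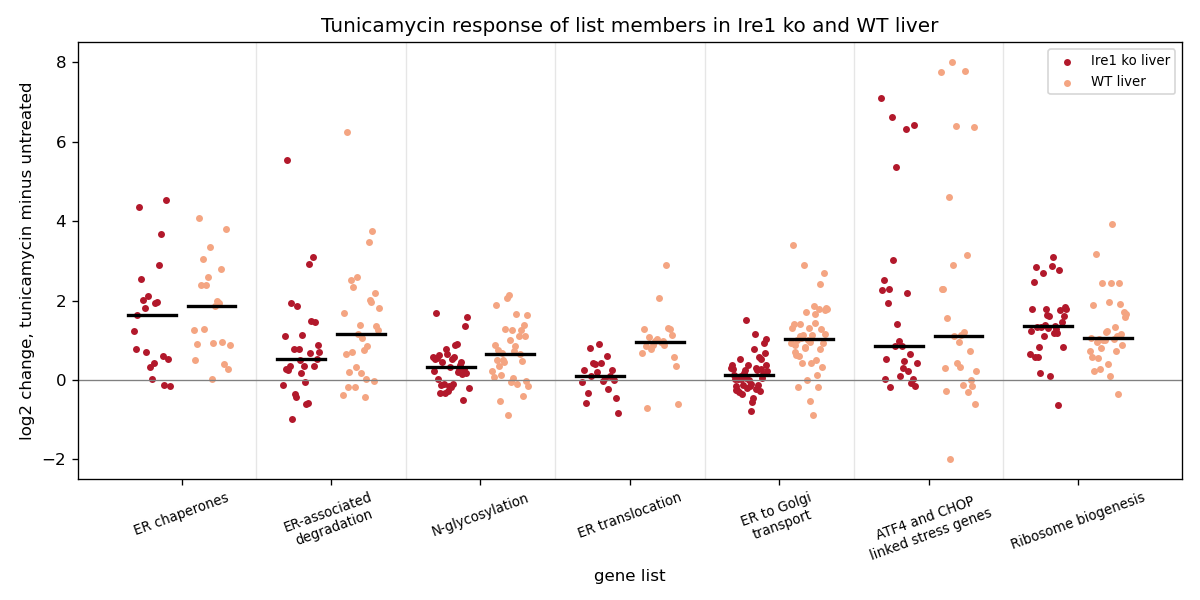
Log2 change after tunicamycin (y axis) for each tested member of 7 gene lists in Ire1 ko (left) and WT (right) liver, with points for genes and bars for list medians. The medians of ER translocation and ER to Golgi transport lie at 0.09 and 0.12 in Ire1 ko liver and at 0.97 and 1.03 in WT liver.

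Negative interactions were frequent in the secretory lists, against 3.95% over all genes. In ER to Golgi transport the interaction was called negative for 32 of 44 tested genes and positive for 0, with a median log2 change of 0.12 in Ire1 ko and 1.03 in WT liver. In ER translocation it was negative for 16 of 20 and positive for 0, with medians of 0.09 and 0.97. The counts were 12 and 0 of 29 for ER-associated degradation and 10 and 0 of 34 for N-glycosylation, but 4 negative and 3 positive of 21 for ER chaperones. Kdelr2, a receptor that returns escaped ER proteins, had 480, 440, 489 and 521 in treated Ire1 ko livers, against 562, 509 and 518 in untreated Ire1 ko livers. In WT it had 1342, 1197, 1554 and 1247 in treated WT livers, against 603, 620, 622 and 562 in untreated WT livers, so that WT arrays separated after tunicamycin where Ire1 ko arrays did not (interaction -1.28 ± 0.12; adjusted p = 7.62e-06). Sec61b, lower in treated Ire1 ko livers, had 847, 811, 887 and 772 in treated WT livers, against 406, 516, 524 and 407 in untreated WT livers (interaction -1.42 ± 0.18; adjusted p = 8.12e-05). Fkbp11 had 43, 31, 36 and 65 in treated Ire1 ko livers, against 46, 27 and 31 in untreated Ire1 ko livers, and it had 491, 546, 486 and 471 in treated WT livers, against 37, 47, 56 and 58 in untreated WT livers (interaction -3.04 ± 0.31; adjusted p = 1.4e-05). Eif2ak3 had 102, 124, 116 and 148 in treated WT livers, against 14, 12, 15 and 17 in untreated WT livers (interaction -2.43 ± 0.22; adjusted p = 3.89e-06). In untreated liver 14 of these 20 translocation genes and 14 of the 44 transport genes were already lower in Ire1 ko than in WT, with 0 higher, against 131 genes lower (0.863%) and 12 higher (0.0791%) over all 15172. That comparison and the interaction share the untreated arrays.

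**Figure D5:**
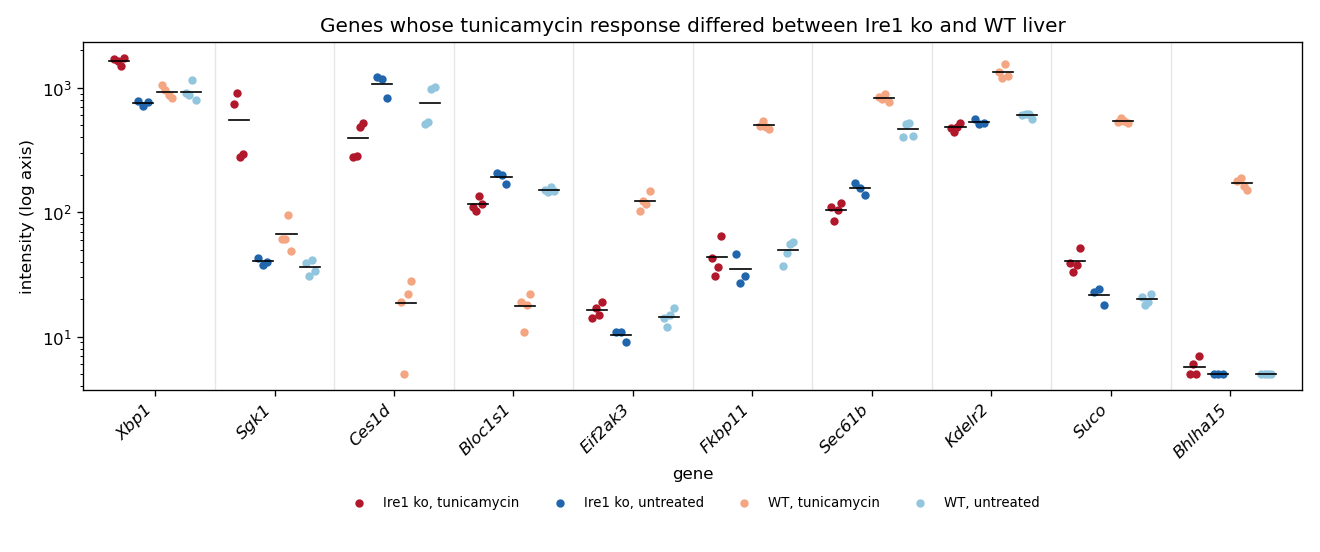
Intensity (log axis) of 10 genes whose interaction was called, in every array of, from left to right for each gene, tunicamycin-treated Ire1 ko, untreated Ire1 ko, tunicamycin-treated WT and untreated WT liver, with points for arrays and bars for means. Suco and Bhlha15 average 40.5 and 5.75 in treated Ire1 ko livers and 541 and 171 in treated WT livers.

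The largest negative interactions belonged to genes that responded strongly in WT liver. Bhlha15, the secretory cell transcription factor MIST1, had 5, 6, 5 and 7 in treated Ire1 ko livers, against 5, 5 and 5 in untreated Ire1 ko livers. In WT it had 179, 190, 163 and 151 in treated WT livers, against 5, 5, 5 and 5 in untreated WT livers, an interaction of -4.90 ± 0.18 (adjusted p = 1.74e-10). Its level stayed near the floor in all Ire1 ko arrays. Suco, an ER membrane protein, had 39, 33, 38 and 52 in treated Ire1 ko livers, against 23, 24 and 18 in untreated Ire1 ko livers and in WT 535, 574, 538 and 518 in treated WT livers, against 21, 18, 19 and 22 in untreated WT livers (interaction -3.87 ± 0.20; adjusted p = 1.25e-08). Far1, a peroxisomal fatty acyl reductase, Ube2c, a ubiquitin-conjugating enzyme of mitosis, Tspyl2, Ccdc134, Nhsl1 and Kctd7 had interactions of -5.27 ± 0.38, -4.74 ± 0.50, -4.01 ± 0.31, -3.61 ± 0.37, -3.60 ± 0.23 and -3.49 ± 0.18. Of these 8 genes, Suco, Ube2c and Ccdc134 were also called higher in Ire1 ko liver, by log2 changes of 0.89 ± 0.15, 2.32 ± 0.37 and 2.21 ± 0.27. So was Tspyl2 at 0.67 ± 0.23 (adjusted p = 0.0366), but its call was lost without any of the 3 untreated arrays or without treated replicate 2 or 4, at an adjusted p of up to 0.131.

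Positive interactions marked genes that fell less, or rose more, in Ire1 ko liver. Bloc1s1, a long-known substrate of IRE1α cleavage, had 110, 103, 135 and 117 in treated Ire1 ko livers, against 208, 199 and 168 in untreated Ire1 ko livers (log2 change -0.72 ± 0.18; adjusted p = 0.00639). In WT it had 19, 11, 18 and 22 in treated WT livers, against 151, 145, 161 and 148 in untreated WT livers, an interaction of 2.43 ± 0.25 (adjusted p = 1.26e-05). The fall was thus present in both genotypes and larger in WT. Of 9 tested published IRE1 substrates 2 fell in Ire1 ko liver, Bloc1s1 and Tapbp (-0.54 ± 0.13), against 10.3% of all genes. Under median scaling 4 fell there. In WT liver 6 fell, against 17.6% of all genes. The interaction was called for 2 of the 9, Bloc1s1 and Hgsnat (1.28 ± 0.29), both positive, against 3.58% positive over all genes. Ces1d, a carboxylesterase, had 280, 284, 488 and 518 in treated Ire1 ko livers, against 1215, 1189 and 825 in untreated Ire1 ko livers (log2 change -1.49 ± 0.46; adjusted p = 0.022) and in WT 19, 5, 22 and 28 in treated WT livers, against 508, 527, 978 and 1021 in untreated WT livers (interaction 4.04 ± 0.63; adjusted p = 0.000602). The fall of Ces1d in Ire1 ko liver lost its call without untreated replicate 1 or 2 or treated replicate 1 or 2 (adjusted p of up to 0.0768), while its interaction stayed called. Of 10 tested carboxylesterases 5 fell in Ire1 ko and 8 in WT liver, and 4 had a positive interaction. These close paralogs may share probes. Sgk1, a kinase of stress and glucocorticoid signalling, had 743, 911, 276 and 296 in treated Ire1 ko livers, against 43, 38 and 40 in untreated Ire1 ko livers and in WT 61, 61, 95 and 49 in treated WT livers, against 39, 31, 41 and 34 in untreated WT livers (interaction 2.75 ± 0.47; adjusted p = 0.00128). Xbp1 rose in Ire1 ko but not detectably in WT liver, with 1047, 967, 884 and 823 in treated WT livers, against 904, 880, 1151 and 799 in untreated WT livers there (interaction 1.12 ± 0.15; adjusted p = 0.000171). Sorbs3, Clec2d, Retreg3, Gm2788 and Phlda1 had interactions of 2.45 ± 0.31, 2.35 ± 0.23, 2.25 ± 0.30, 2.78 ± 0.51 and 2.30 ± 0.41, and hepatocyte transcription factors held 11 positive and 0 negative of 33, among them Onecut1 at 2.08 ± 0.33.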

How the data were processed

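Biotin-labelled RNA of mouse liver was hybridised to Affymetrix arrays. Per the submitters' processing notes, the deposited intensities were made with RMA and the affy package, for which no versions are given. They are whole numbers on a linear scale, and log2 was taken here. Of 45037 probe sets, 28898 carry 1 gene symbol, 551 several and 15588 none in the platform table. A gene was read from its brightest probe set with 1 symbol and tested when at least 3 of 15 arrays had it above their 30th percentile. The fit of 15 arrays in 4 groups used limma 3.58.1 (eBayes with an intensity trend) in R 4.3.3, with two-sided tests and Benjamini-Hochberg adjustment over 15172 genes at 0.05. Errors are SE for log2 changes, and arrays count as separate mice because the labels call them biological replicates. The fit was tested on simulated data.

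The 53 gene lists (1284 genes, of which 1141 measured), the tests and the rule for named genes were chosen with earlier results of these data known. Named were the sensors and transducers, 14 genes with the highest and 14 with the lowest change without overlap between the groups, up to 6 called and 3 bright uncalled members of each list described, and 8 genes with the highest and 8 with the lowest interaction. Promoters shown were those of called members of 3 lists with the largest changes that hold a motif, at most 4 a motif. Hspa5 and Edem2 were added after their values were seen. Alternatives were other scalings, filters, probe set rules, sample sets, array weights, a variance trend, a pseudocount of 8, the replicate number as a block and leaving out each array. Coordinates and promoters come from RefSeq GRCm38.p6, and the arrays give none. Depth does not apply to arrays, whose number limits the precision.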

Additional observations from a re-analysis of the deposited data

Results flagged for a closer look

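For 18 of 215 named genes, 1 of the 4 treated Ire1 ko arrays stood apart from the others by Dixon's criterion on the log2 scale. Chance flags about 1 in 20 groups, and the part of chance was not tested. In replicate 1, Cps1 was low at 2915, Lpin1 at 309 and Mbtps2 at 29. In replicate 2, Manf was low at 2733, Nop10 at 741 and Bid at 67, while Ifrd1 was high at 586. In replicate 3, Aup1 was high at 163 and Cyp7a1 at 690. In replicate 4, Hspa5 was low at 2879, while Pdia5 was high at 148 and Slc38a3 at 1472. The remaining gaps were a step of 1 or 2 units near the floor of the array: Cish at 8 and Onecut1 at 9 on the high side, Eif2ak4 at 9, Creb3l1 at 5, and Ern2 and Kctd7 at 4. No array held most of these gaps.

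The response of 23 named genes differed between Ire1 ko and WT liver by the interaction of the fit. It was negative for Bhlha15 (-4.90), Far1 (-5.27), Ube2c (-4.74), Tspyl2 (-4.01), Suco (-3.87), Ccdc134 (-3.61), Nhsl1 (-3.60), Kctd7 (-3.49), Fkbp11 (-3.04), Eif2ak3 (-2.43), Sec61b (-1.42) and Kdelr2 (-1.28). It was positive for Ces1d (4.04), Gm2788 (2.78), Sgk1 (2.75), Sorbs3 (2.45), Bloc1s1 (2.43), Clec2d (2.35), Phlda1 (2.30), Retreg3 (2.25), Onecut1 (2.08), Hgsnat (1.28) and Xbp1 (1.12). Strain is labelled differently for the genotypes, so that strain and genotype cannot be told apart here.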

How the results depend on the processing

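The count of genes called in Ire1 ko liver, 4204 as reported, lay between 3770 (the 7 Ire1 ko arrays alone) and 5301 (median scaling) over the alternatives that kept all arrays of this liver, and within 1.5 times of the reported value in each. The number called lower left that range under median scaling, at 3427 against 1570. That scaling put the median log2 change of all genes at -0.18 instead of 0. Which scaling suits these livers better was not tested. Leaving out 1 of the 15 arrays gave 3559 to 4208 called genes, 2147 to 2642 higher and 1302 to 1600 lower, and 926 to 1108 called interactions. Same-numbered treated and untreated arrays correlated in their deviations at 0.273, -0.048 and 0.165, and differently numbered ones at -0.327 to 0.232. So few values cannot show whether the numbers pair the samples. With the replicate number as a block 4105 genes (2576 higher, 1529 lower) and 977 interactions were called. Of 152 called genes among the 215 named, 16 lost the call under at least 1 alternative, 9 of them when an array was left out, and 25 others gained one. Beside those given above, Egr1 (adjusted p = 0.0583), Myc (0.0632) and Tapbp (0.0511) lost it in the fit of 7 arrays, and Creb3 (0.217), Eif2ak3 (0.115) and Psmb9 (0.121) when the probe sets of a gene were averaged, all with limma. Without 1 array, counts of 0 to 2 genes in 1 direction also moved by 1 or 2 genes in the sensor, one-carbon, growth arrest, immediate early, complement, apolipoprotein, glucose, conjugating enzyme, urea cycle, Kupffer, stellate and pancreas lists. No named gene changed sign with a call, and the 28 named interactions kept their side of the threshold throughout. Some called genes had another probe set that was not called, among them Scara5 (0.03), Arntl (0.05), Paqr7 (-0.30), Tfrc (-0.25), Creb3 (-0.24), Creb3l2 (0.13) and Mbtps2 (0.09). For Slc38a2, 1 of 3 probe sets was called. Signal near the floor limits 775 of the called genes, for which fold changes are compressed, and the number of arrays limits all values.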

Other observations

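Probe sets without a single gene symbol were not used above. In a fit of all 36948 probe sets that passed the filter, 12327 had no single symbol, and 1663 of these (13.5%) were called in Ire1 ko liver, 1126 higher and 537 lower after tunicamycin. Over all probe sets of that fit 7429 (20.1%) were called.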
